A study of Mus musculus with 68 samples.

Results

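Hes1, Hes5, Hes6, Hey1, Hey2 and Heyl are basic helix-loop-helix proteins of the hairy and Enhancer-of-split families, and Nrarp is a small ankyrin-repeat protein. These 7 genes were taken from 18194 genes on the array as the Hes and Hey genes of interest with Nrarp, whatever their values. The array platform's annotation maps 12 probe sets to them, and all 7 genes had at least 1 probe set above the detection limit used here in at least 1 of 68 cells. Heyl has 3 probe sets, Hes5, Hes6 and Nrarp have 2 each, and Hes1, Hey1 and Hey2 have 1 each.

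Notch receptors bind ligands such as Dll1 on a neighbouring cell and are then cleaved, and the freed intracellular domain (NICD) enters the nucleus and joins the DNA-binding protein RBPJ to activate transcription. Hes1, Hes5 and the Hey genes are classical targets of this complex and repress proneural genes, which keeps neural progenitors undifferentiated. Nrarp is also a target, and its protein binds NICD and limits its signalling. Hes6 differs from its relatives in that it is known to inhibit Hes1 and to favour neuronal differentiation.

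The data come from single cells of the dorsal cortex of CD1 mice, each cell's amplified cDNA hybridized to 1 Affymetrix mouse array. There were 30 cells of embryonic day 11 (E11) and 28 cells of E16, which were dissociated, picked and screened for marker transcripts by PCR before hybridization. A further 3 cells were apical progenitors (APs) of E12, and 3 were APs from neurospheres, which are floating aggregates grown for 3 days from E11 cells with FGF2 and EGF. The last 4 cells were E14 APs that had received plasmids for mouse Notch1 NICD under the CAG promoter and for mouse p18 (Cdkn2c, an inhibitor of G1 cyclin-dependent kinases) under the EF promoter, together with EGFP, by electroporation in utero at E11. These NICD/p18 cells were chosen as EGFP-positive, Ttyh1-positive and negative for Tbr2 (Eomes), and the study checked that they lacked Ki67. The E12 APs were chosen as positive for Ki67, Ttyh1, Sox2 and Pax6 and negative for Tbr2. No E14 cell without the plasmids was analysed here, so stage, NICD and p18 cannot be told apart in the 4 NICD/p18 cells. The promoters that drive the plasmids are not restricted to APs.

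The labels give no cell type for E11 and E16 cells. They were therefore clustered within each stage on markers of APs, of intermediate progenitors (IPs, the Eomes-positive daughters of APs) and of neurons, with the Hes, Hey and Nrarp genes left out. This gave 23 AP-like, 3 IP-like and 3 neuron-like cells at E11 and 17 AP-like, 7 IP-like and 4 neuron-like cells at E16, with 1 further E11 cell of low quality, 31i, set aside. These classes were rebuilt from the arrays and may differ from those of the study. They also rest on genes of the same cells, so any difference between them describes the classes and is no test of them. The E16 neuron-like class is mixed, since 3 of its 4 cells were above the detection limit for Eomes. In at least 2 of its 4 cells, 9 of 13 IP markers were above the limit, against 5 of 13 neuron markers. Its summed neuron-marker signal was 19822 to 68076, against 2445 to 17618 in E16 IP-like cells. Values of this class are therefore not those of neurons alone. Of the E11 cells, 1 AP-like cell carried 3 of 4 blood markers, and 2 neuron-like cells carried the Cajal-Retzius marker Reln. Of the 17 E16 AP-like cells, 8 carried 1 or 2 markers of another cell type, among them Olig1, Olig2, Pdgfrb, Col1a2 and Csf1r.

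Some cells went against their labels. The first of the E12 cells had an Eomes signal of 3447, far above the 2 others. Neurosphere cell W6D carried all 5 oligodendrocyte precursor markers and had low Ttyh1 (251) and Pax6 (17.3), while its 2 companions carried 1 and 2 of those markers. In the NICD/p18 cells Mki67 (Ki67) was at 0.940 to 18.8 and Ttyh1 was at 3535 to 9443. These 4 cells held 10 to 12 of 13 AP markers above the limit. Their summed AP-marker signal was 54450 to 113825, against 20886 to 46261 in E11 AP-like cells. They also held 1 to 8 of 13 neuron markers above the limit. Their summed neuron-marker signal was 3293 to 46395, against 906 to 12155 in E11 AP-like cells. All 4 were above the limit for Pdgfrb, but it was the only 1 of 5 mesenchyme markers above it in any of them. The part of these other transcripts in the results below was not tested. Notch1 had signals of 587, 630, 1258 and 1601 and Cdkn2c of 469, 78.2, 57.1 and 412 in the NICD/p18 cells, but the plasmids hold parts of these transcripts and the probe positions are not given in the sources used here, so neither gene checks the label.

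All values below are quantile-normalized signals from the deposited intensities. A synthetic RNA, phe, was added at 20 copies per cell, and its median signal over all arrays, 842, served as the limit above which a gene is called detected ("over 20 copies"). On single arrays phe ran from 28.4 to 6636 in E11 and E16 cells and from 13.1 to 1662 in neurosphere APs. The term thus means a signal over 842, and in a single cell it is an uncertain measure of copies. For means, signals below 842 were set to 842 and log2 transformed, so a level of 9.72 is the lowest possible and differences of low genes are understated. Because every array holds a single cell and nothing in the labels says from which embryo or culture it came, the cells of a group are no replicates of a condition, a group counts as 1 sample and no p-value is given. Means carry the SD between cells, shares carry a 95% exact binomial interval that covers counting error only, and a mean difference of at least 1 on the log2 scale (2-fold) is called past the rule. For each comparison the share of all 20721 detected probe sets past the same rule is given as background. No such share is given for groups that do not overlap, so non-overlap is only a description of these cells.

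The Hes and Hey genes were not detected alike in these cells. Over all 68 cells, Hey1 was over 20 copies in 45 cells, Nrarp in 37, Hes6 in 27, Hes5 in 24, Hes1 in 13, Hey2 in 4 and Heyl in 1. An E11 AP-like cell was over 20 copies for 0 to 5 of the 7 genes with a median of 2, and 2 of the 23 cells were over for none. E16 AP-like cells ranged from 1 to 5 with the same median. The NICD/p18 cells had 3 or 4 of the 7.

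**Figure D1:**
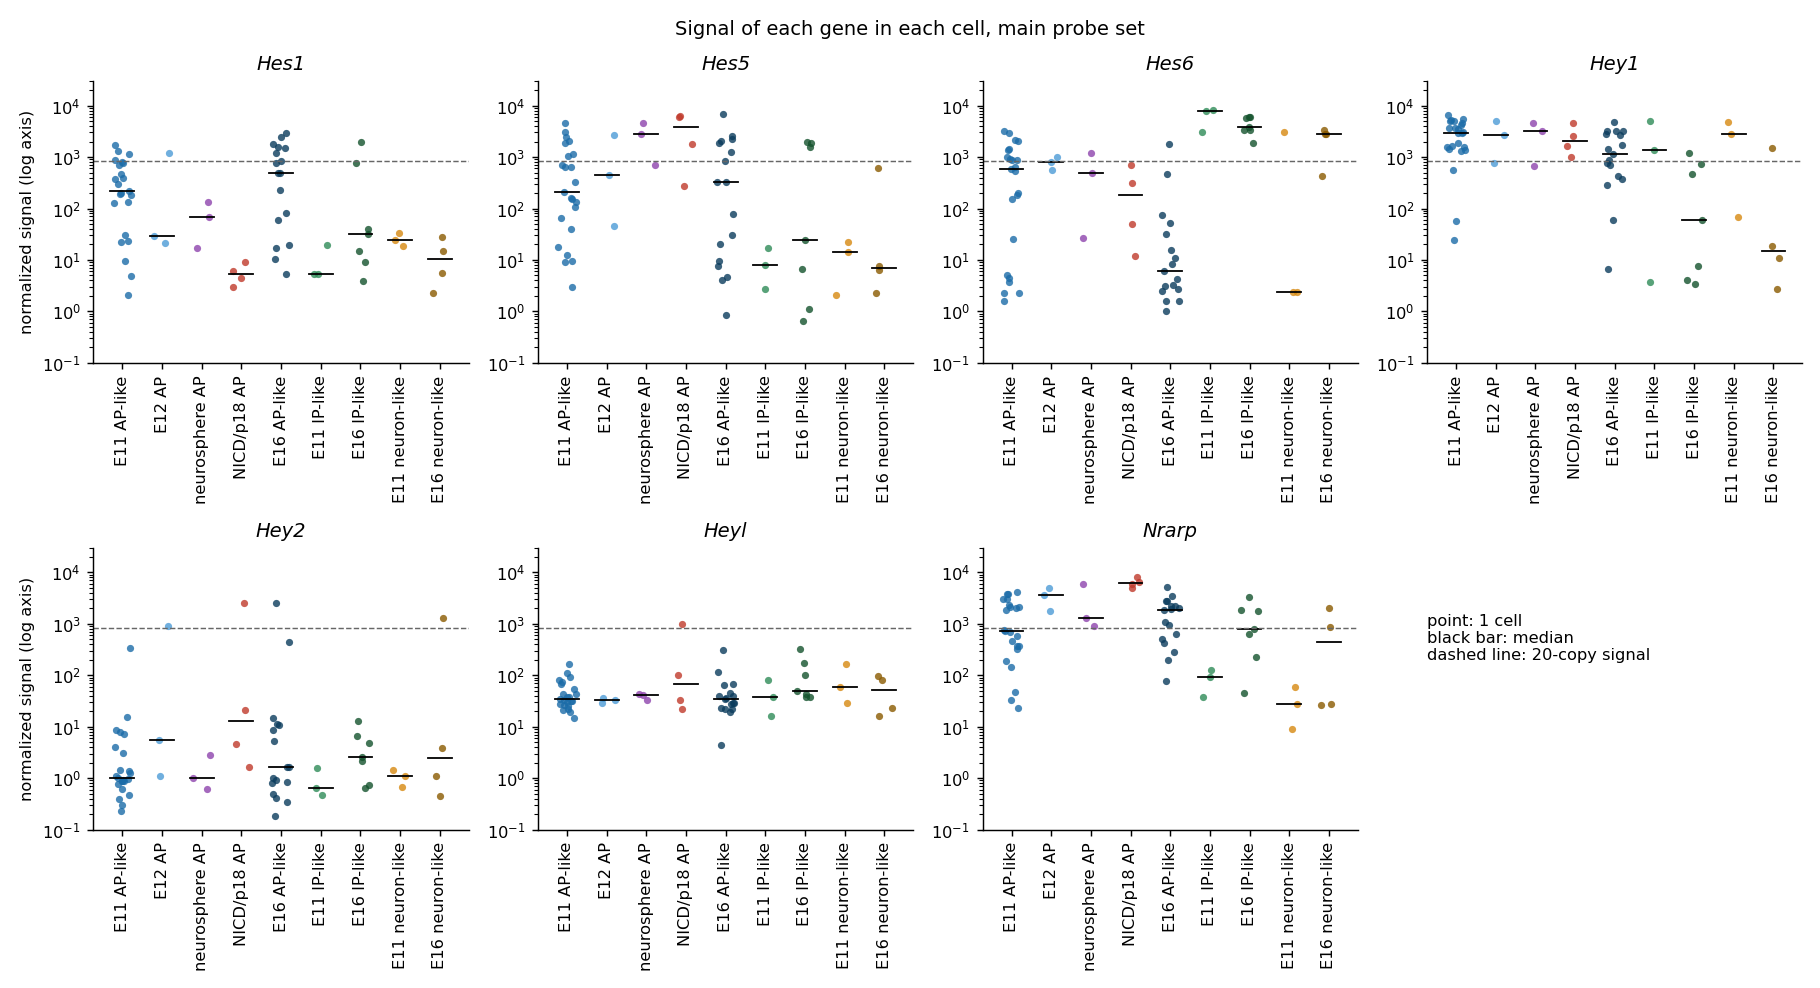
Quantile-normalized signal (log axis) of the main probe set of each of the 7 genes in the 67 grouped cells, with 1 point per cell, a black bar at the group median and a dashed line at the 20-copy signal of 842. Hes6 lies above the line in all 10 IP-like cells, and Nrarp lies at 4861 to 8266 in the 4 NICD/p18 cells.

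Hes6 was the gene of this family that set IP-like cells apart. At E11 the 3 IP-like cells had signals of 8351, 7751 and 3111, a level of 12.52 ± 0.79 (SD, n = 3). The 23 AP-like cells ran from 1.63 to 3182 with a median of 578, and 10 of them (43.5%, interval 23.2 to 65.5%) were over 20 copies, a level of 10.08 ± 0.62. The floored difference was 2.44 on the log2 scale, and the groups overlapped, since the highest AP-like cell stood just above the lowest IP-like cell. With the second Hes6 probe set the difference was 2.46, and the IP-like cells at 2611, 7239 and 7265 were all above the highest AP-like cell at 2212.

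At E16 the 7 IP-like cells had Hes6 signals of 3281, 1857, 3307, 6076, 3885, 5810 and 5890, a level of 11.96 ± 0.63. Every one of them was above all 17 AP-like cells, whose signals ran from 1.00 to 1802 with a median of 6.02 and of which 1 (5.88%, interval 0.149 to 28.7%) was over 20 copies. The floored difference was 2.18, and with the second probe set it was 1.68, again with no overlap (1868 to 5227 against at most 1665). Without the E11 and E16 cells that carried a marker of another type, the Hes6 differences were 2.40 at E11 and 2.03 at E16. The 2 other ways of clustering that were tried found no IP-like class at E16, so this difference rests on the clustering used. Hes6 was thus the single member past the rule between IP-like and AP-like cells at each stage, against a background of 2.64% of probe sets at E11 and 0.724% at E16. The median difference over the 7 genes was -0.09 at both stages, and over all probe sets it was 0.00.

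Within AP-like cells, Hes6 was over 20 copies in 10 of 23 cells at E11 and in 1 of 17 at E16, although the floored means differed by -0.30, which is not past the rule. The SD between cells was 0.62 in the E11 and 0.27 in the E16 class. With the second probe set 6 of 23 and 1 of 17 cells were over 20 copies, and the difference was -0.09. The counts that follow use the main probe set. Of the 10 E11 AP-like cells over 20 copies for Hes6, 5 were also over for the proneural gene Neurog2, as were 3 of the 13 cells below 20 copies for Hes6. For the ligand Dll1 these numbers were 3 of 10 and 1 of 13, for the receptor Notch1 5 of 10 and 8 of 13, and for Rbpj 2 of 10 and 7 of 13. In neuron-like cells Hes6 varied. The E11 neuron-like cells had 2.44, 3038 and 2.41, and the E16 cells had 2838, 3320, 2809 and 436. The floored difference of neuron-like from AP-like cells was 0.26 at E11 and 1.30 at E16. At E16 Hes6 was thus past the rule, as 3.46% of all probe sets were, but not with its second probe set (0.53). The E16 neuron-like class also carries IP markers, as given above. In the other progenitors Hes6 was near the limit or below it, at 560, 800 and 996 in E12 APs, 27.3, 488 and 1187 in neurosphere APs and 49.2, 12.2, 700 and 312 in NICD/p18 cells.

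Of 57 E11 and E16 cells, 25 were over 20 copies for Hes6, and the genes whose pattern was most like it were Gadd45g (Pearson r = 0.80), Neurog2 (r = 0.80) and Btg2 (r = 0.72), chosen from 7241 probe sets. All 3 are among the IP markers used for the clustering. The points share their arrays, and r is given as a description across cells.

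The RefSeq promoter table holds 2 start sites for Hes6. The 250 bases before the outer start site, on the minus strand of GRCm38.p6 at chr1:91414039-91414288, are shown because Hes6 separated the IP-like cells.
Hes6 promoter: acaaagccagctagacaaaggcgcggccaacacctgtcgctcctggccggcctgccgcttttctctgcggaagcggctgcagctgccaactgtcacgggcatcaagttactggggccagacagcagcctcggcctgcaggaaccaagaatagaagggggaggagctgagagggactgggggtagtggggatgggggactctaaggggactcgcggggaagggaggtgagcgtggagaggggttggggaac
The letters CAGCTG, an E-box of the kind that proneural proteins bind, were searched on both strands along with the RBPJ motif and the N-box of Hes proteins that are spelled out with Nrarp and Hes5. This window holds 1 E-box, 171 bases before the start site, and neither an RBPJ motif nor an N-box. The window of the inner start site holds 1 E-box, 150 bases before it, 1 N-box, 237 bases before it, and no RBPJ motif. The E-box is present in 4271 of 32851 promoter windows of this length. A match is a description and not a known binding site.

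**Figure D2:**
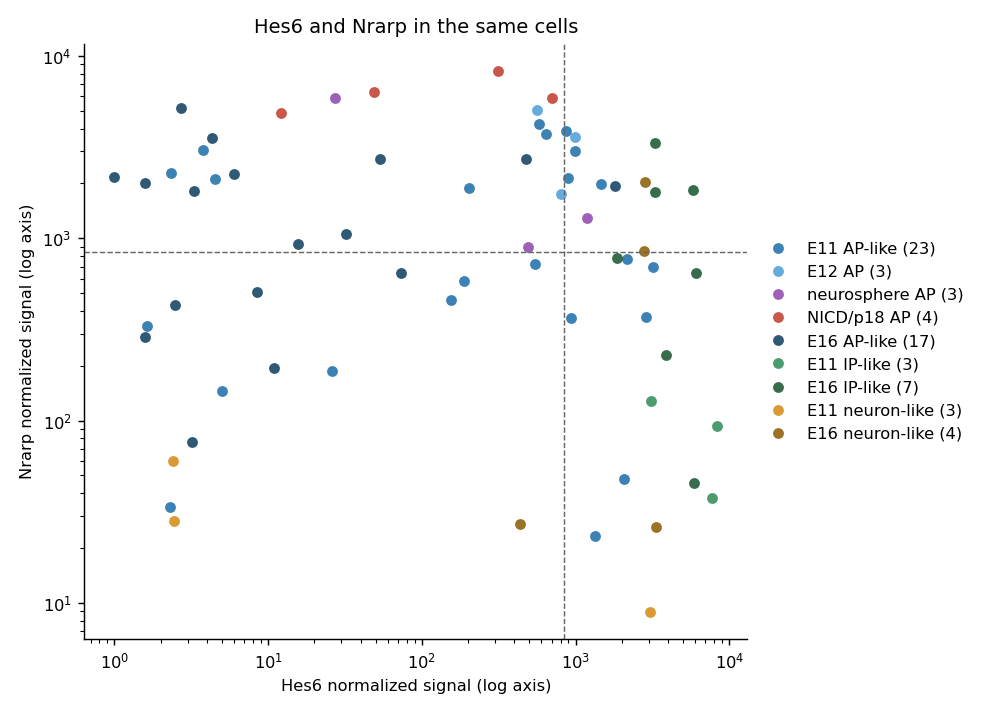
Nrarp signal (vertical, log axis) against Hes6 signal (horizontal, log axis) in the 67 grouped cells, 1 point per cell coloured by group, with dashed lines at 842. The 3 E11 IP-like cells lie at high Hes6 and at Nrarp signals of 37.6 to 128, while the 4 NICD/p18 cells lie at high Nrarp and below the Hes6 line.

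Nrarp, the feedback inhibitor, was highest in the NICD/p18 cells. Their signals were 6368, 4861, 5916 and 8266, a level of 12.61 ± 0.32 (SD, n = 4). The 23 E11 AP-like cells ran from 23.4 to 4223 with a median of 720, and 10 of them were over 20 copies (43.5%), a level of 10.45 ± 0.90. All 4 NICD/p18 cells were above every E11 AP-like cell, and the floored difference was 2.15. The 17 E16 AP-like cells ran from 76.7 to 5190 with a median of 1823, 11 were over 20 copies (64.7%, interval 38.3 to 85.8%), and the difference from them was 2.01. Here the ranges overlapped, since the highest E16 cell was above the lowest NICD/p18 cell.

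The E12 APs had Nrarp signals of 5052, 1754 and 3578 (11.63 ± 0.78) and the neurosphere APs 5871, 894 and 1284 (10.88 ± 1.44). All 6 of these cells were over 20 copies. In floored means the NICD/p18 cells were 0.98 above the E12 APs and 1.72 above the neurosphere APs. The latter is past the rule, with a background of 5.13% of probe sets, and there was 1 cell of each of those groups above the lowest NICD/p18 value. The order of mean levels was NICD/p18, E12, neurosphere, E16 AP-like and E11 AP-like, and apart from the step between NICD/p18 and E12 each step was smaller than the SD between cells of the groups on either side of it.

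Spike signals bear on these values. The phe signal had a group median of 3308 in the NICD/p18 cells, which is 3.93 times the limit, against 758 to 929 in the other labelled groups. Among the E11 and E16 classes it was 608 to 877, except for 2573 in the 3 E11 IP-like cells. The lys spike, added at 1000 copies per cell, had a median of 14201 in the NICD/p18 cells against 5836 to 9814. The limit of 842 therefore stands for fewer than 20 copies in the NICD/p18 and E11 IP-like cells. Over their own 2573, the E11 IP-like cells numbered 3 of 3 for Hes6 and 1 of 3 for Hey1, which was over 842 in 2 of 3. All 4 NICD/p18 cells were also over 3308 for Nrarp, as were 2 of 4 for Hes5, 1 of 4 for Hey1 and none for Hey2 or Heyl. With arrays scaled to lys in place of quantile normalization, the Nrarp differences of NICD/p18 cells were 1.48 from E11 and 1.78 from E16 AP-like cells, while those of Hes5 were 0.91 and 0.96 and no longer past the rule. The 10 arrays of E12, neurosphere and NICD/p18 cells were also deposited at another scale than the 58 arrays of E11 and E16 (trimmed means of 500 against 47.5 to 298), so the processing and these groups cannot be told apart.

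Nrarp was low in the E11 cells outside the AP-like class. The 3 IP-like cells had 93.9, 37.6 and 128 and the 3 neuron-like cells had 28.1, 8.91 and 59.8, all below the limit, which with 0 of 3 cells allows a share of up to 70.8% in each class. The floored difference from AP-like cells was -0.73 in both. At E16 the IP-like cells had 1800, 781, 3330, 645, 230, 1849 and 45.2, with 3 of 7 over 20 copies and a difference of -0.27, and 2 of 4 neuron-like cells were over 20 copies (2027 and 855), with the other 2 near 26.1. The second Nrarp probe set was weak and tracked the main one poorly across the 68 cells (r = 0.25 on floored values), with 30 cells over 20 copies on the main probe set alone. In NICD/p18 cells it was over 20 copies in 2 of 4 (1615 and 1990) and differed by 0.50 from E11 AP-like cells, so the Nrarp result rests on the main probe set.

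The promoter of Nrarp, 250 bases on the plus strand of GRCm38.p6 at chr2:25180508-25180757, is shown because Nrarp and Hes5 were the 2 genes past the rule in NICD/p18 cells.
Nrarp promoter: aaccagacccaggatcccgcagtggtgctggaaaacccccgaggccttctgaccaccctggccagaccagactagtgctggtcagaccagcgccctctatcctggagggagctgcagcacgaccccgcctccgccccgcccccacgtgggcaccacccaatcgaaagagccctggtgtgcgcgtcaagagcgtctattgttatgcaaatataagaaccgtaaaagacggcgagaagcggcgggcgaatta
The N-box, CACNAG with any base at N, occurs in it at 2 places on the minus strand, 179 and 79 bases before the start site, and the RBPJ motif at none. Of all promoter windows, 36.7% hold an N-box and 8.18% hold at least 2.

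Hes5, a Notch effector of neural progenitors, was the other gene past the rule in NICD/p18 cells. Its signals there were 1797, 6338, 269 and 6030 (11.43 ± 1.42, n = 4), so 3 cells were over 20 copies and 1 was not. The 23 E11 AP-like cells ran from 2.95 to 4513 with a median of 206 and 7 over 20 copies (30.4%, interval 13.2 to 52.9%; level 10.11 ± 0.72). The 17 E16 AP-like cells ran from 0.841 to 6832 with a median of 325 and 7 over 20 copies (41.2%; level 10.25 ± 0.88). The NICD/p18 mean was 1.32 above E11 and 1.18 above E16 AP-like cells, and the groups overlapped in both. The second probe set gave 1112, 4625, 163 and 5038 in the NICD/p18 cells and differences of 1.19 and 1.13. The lead rested on 2 cells. Without M5K the Hes5 differences were 0.92 and 0.78, and without M6H they were 0.94 and 0.80, all short of the rule. Hes5 was also short of it with lys scaling, as given above. Against the E12 APs the Hes5 difference was 1.14, past the rule with a background of 5.80% of probe sets. Against the neurosphere APs it was 0.31, short of the rule.

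Against the NICD/p18 background of 4.79% of probe sets past the rule from E11 and 3.48% from E16 AP-like cells, 2 of the 7 genes were past it in each, Hes5 and Nrarp, both higher. The median difference over the 7 genes was 0.05 from E11 and 0.31 from E16, with 0.00 over all probe sets. These 2 comparisons share the NICD/p18 cells.

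The neurosphere APs had Hes5 signals of 4656, 699 and 2808 (11.12 ± 1.27), and their mean was 1.01 above E11 AP-like cells. Hes5 was the single member past the rule there, with a background of 2.36%. This value sits at the edge of the rule. It was 0.69 with the second probe set, 0.84 without W6D, the cell with oligodendrocyte precursor markers, and 0.48 without W2G, but 1.71 without W2O. The E12 APs had 448, 45.5 and 2738 for Hes5.

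No E11 IP-like cell (lowest 2.70, median 8.02), E11 neuron-like cell (at most 22.8) or E16 neuron-like cell (at most 619) was over 20 copies for Hes5. At E16 the IP-like cells split, with 1862, 1553 and 1987 in 3 cells and 6.54, 0.645, 1.12 and 24.8 in the other 4. The 2 probe sets of Hes5 ranked the cells closely alike (r = 0.91 on floored values over 68 cells, 19 cells over on both). In the plot of both probe sets, that of Hes6 was similar (r = 0.89, 20 cells over on both). The main probe sets of Hes5 and Hes6 are of the x_at type, which can share probes with other transcripts.

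**Figure D3:**
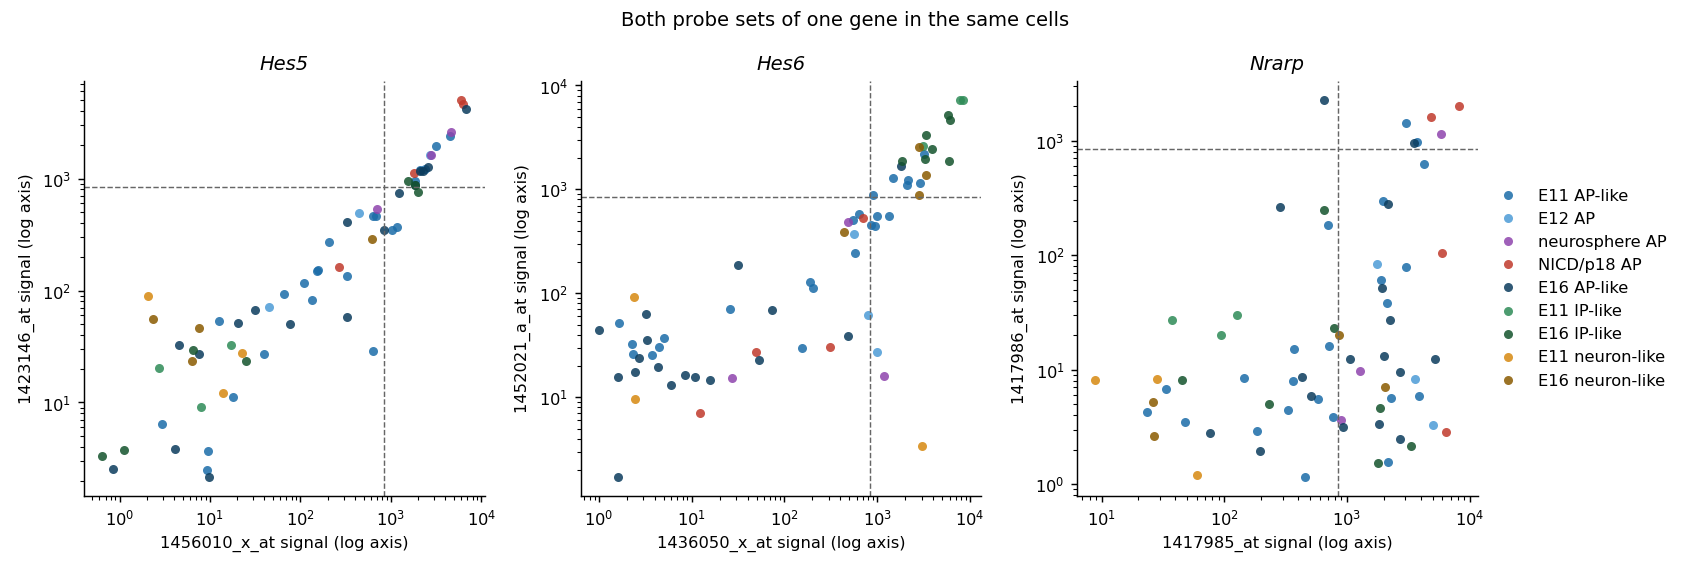
Signals of both probe sets of Hes5, Hes6 and Nrarp in the same cells (log axes), 1 point per cell coloured by group, with dashed lines at 842 on each axis. The Hes5 and Hes6 points follow a line (r = 0.91 and 0.89 on floored values), while Nrarp points spread widely (r = 0.25).

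The promoter window of Hes5 (250 bases, plus strand, chr4:154960673-154960922 on GRCm38.p6) holds 2 matches to the RBPJ motif, searched as GTGGGAA on both strands. Of all promoter windows 0.161% hold at least 2 matches and 5.42% hold at least 1. The annotated span of Hes5 (chr4:154960626-154962372) begins upstream of the window and holds all of it, so the window may be transcribed. Hey2 has 1 match in its window. Stretches of 30 bases around each match are shown, with the RBPJ motif letters, read on either strand, in capitals.
Hes5, 226 bases before the start, chr4:154960686-154960715: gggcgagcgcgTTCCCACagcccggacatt
Hes5, 83 bases before the start, chr4:154960829-154960858: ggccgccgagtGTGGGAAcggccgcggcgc
Hey2, 207 bases before the start, chr10:30842972-30843001, minus strand: gcgcggtggcaTTCCCACgcctctgccaac
The promoters of Hes1, Hey1 and Heyl were not analysed here.

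Hes1, the most studied of the repressors, was less often over 20 copies. Signals in E11 AP-like cells were 2.06 to 1742 (median 221), with 4 of 23 cells over (17.4%, interval 4.95 to 38.8%) and a level of 9.81 ± 0.26. Those in E16 AP-like cells were 5.44 to 2910 (median 489), with 6 of 17 over (35.3%, interval 14.2 to 61.7%) and a level of 10.11 ± 0.61. The means differed by 0.30, short of the rule, and the intervals overlap widely.

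None of the 4 NICD/p18 cells was over 20 copies for Hes1, which allows a share of up to 60.2%. Their signals were 6.15, 9.03, 2.97 and 4.52, against 29.7, 21.6 and 1200 in E12 APs and 16.9, 69.0 and 136 in neurosphere APs. All of these but 1 are below the limit, where the rank of signals is less certain. The floored differences of NICD/p18 cells were -0.17 from E12 APs and 0.00 from neurosphere APs. Floored differences of NICD/p18 from E11 and E16 AP-like cells were -0.09 and -0.39. Without the floor they were -4.97 and -5.64, but then 57.1% and 54.6% of all probe sets differed by at least 1 in size. Hes1 and Hes5 both repress proneural genes. In E11 AP-like cells 1 cell was over for both, 3 for Hes1 alone, 6 for Hes5 alone and 13 for neither, and at E16 these numbers were 1, 5, 6 and 5.

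In E11 IP-like cells Hes1 was at 5.28, 19.9 and 5.40, and in neuron-like cells of both stages it was at most 32.8. At E16, 1 of 7 IP-like cells was over 20 copies, with 1924 in a set of 40.6, 14.8, 32.6, 1924, 781, 8.97 and 3.83. Over the E11 and E16 cells, of which 11 were over 20 copies, the genes most like Hes1 were Qk (r = 0.60), H2bc21 (r = 0.59) and St8sia1 (r = 0.58).

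Hey1 was the most widely detected gene, and of the 7 it had the largest stage difference in floored means. Without the floor the AP-like difference was larger for Hes6 (-3.89) than for Hey1 (-1.21). In E11 AP-like cells 20 of 23 were over 20 copies (87.0%, interval 66.4 to 97.2%), with signals of 24.6 to 6547, a median of 2965 and a level of 11.29 ± 0.95. In E16 AP-like cells 10 of 17 were over (58.8%, interval 32.9 to 81.6%), with 6.80 to 4841, a median of 1157 and a level of 10.54 ± 0.92. The difference, E16 minus E11, was -0.74, smaller than the SD between cells within each stage. Over all cells of each stage it was -0.95 (24 of 29 cells over 20 copies at E11, 12 of 28 at E16), which is just short of the rule. It passed the rule when arrays were scaled to lys and, over all cells, when E11 and E16 cells carrying a marker of another cell type were left out.

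None of the 7 genes was past the rule between stages, over all cells (background 0.666%) or over AP-like cells (background 1.33%). The median differences of the 7 were 0.13 and 0.09. SDs of floored levels between AP-like cells at E11 and E16 were 0.72 and 0.88 for Hes5 and 0.90 and 0.87 for Nrarp, beside those given above for Hes1, Hes6 and Hey1. The floor makes these SDs follow the number of cells over 20 copies. Without it they were 2.24 and 1.65 for Nrarp and 1.99 and 2.41 for Hey1.

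At E16 Hey1 was over 20 copies in 1 of 7 IP-like cells (14.3%, interval 0.361 to 57.9%; level 9.79 ± 0.20), 0.75 below the AP-like mean. At E11 the IP-like cells had 3.77, 1360 and 4982 and the neuron-like cells 67.6, 4750 and 2834, so Hey1 was over 20 copies in 2 of 3 cells of each class. Of the E16 neuron-like cells 1 was over 20 copies (1479), and the median of the 4 was 14.9. The E12 APs (5092, 778 and 2624), neurosphere APs (4682, 3182 and 669) and NICD/p18 cells (2553, 4591, 1611 and 1002) all lay within the range of E11 AP-like cells. In E11 AP-like cells every cell over 20 copies for Nrarp was also over for Hey1 (10 cells), while 10 were over for Hey1 alone. Since 20 of the 23 cells were over for Hey1, such overlap says little, and r between the 2 genes there was 0.05. The genes most like Hey1 were Adk (r = 0.58), Uqcrc2 (r = 0.55) and Dnaja1 (r = 0.51), and those most like Nrarp were Dnph1 (r = 0.48), Pgd (r = 0.47) and Cyhr1 (r = 0.45), which are weak relations over 57 cells.

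Hey2 and Heyl, relatives of Hey1 best known from heart and vessels, were nearly silent on these arrays. Hey2 was over 20 copies in 1 NICD/p18 cell (2573), 1 E16 AP-like cell (2482), 1 E16 neuron-like cell (1289) and 1 E12 AP (922). In E11 AP-like cells its highest signal was 341, and 0 of 23 cells allows a share of up to 14.8%. Heyl was over 20 copies in 1 NICD/p18 cell alone (969), which was also the single NICD/p18 cell over 20 copies for the vessel marker Cldn5 (3956). Cldn5 was the only 1 of 5 vessel markers above the limit in any NICD/p18 cell. The part of vessel transcripts in the Heyl value was not tested. The 2 other Heyl probe sets were below the limit in all 68 cells. For Fam50a (r = 0.50), Hscb (r = 0.49) and Cnnm3 (r = 0.47), the genes most like Hes5, and for the lists above, a minimum of 10 cells over 20 copies was asked, which Hey2 and Heyl did not meet.

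**Figure D4:**
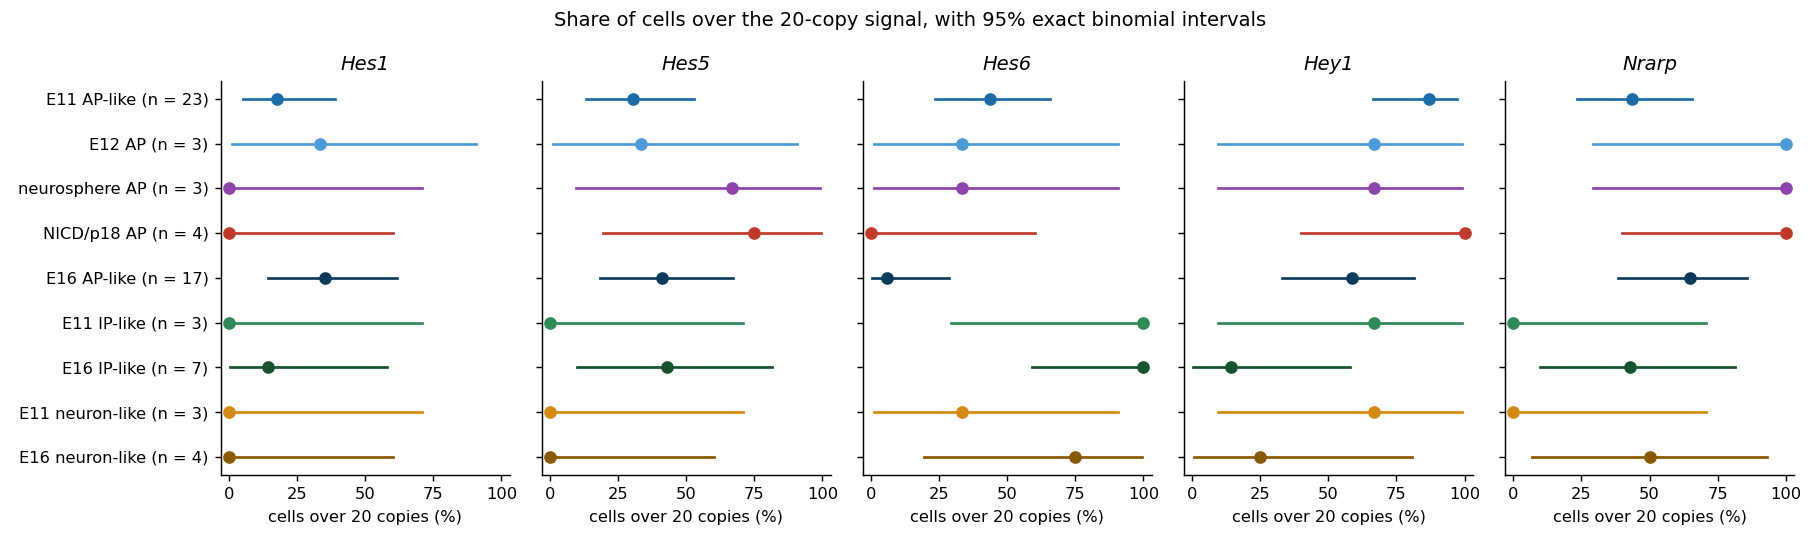
Share of cells over 20 copies (percent, horizontal) for Hes1, Hes5, Hes6, Hey1 and Nrarp in each group, with bars for the 95% exact binomial interval. Hes6 is at 100% in IP-like cells of both stages and at 5.88% in E16 AP-like cells, and most intervals of the groups of 3 or 4 cells span much of the axis.

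The E12 APs had 1 gene past the rule from E11 AP-like cells, with a background of 1.24%. This was Nrarp, higher by 1.18, and the difference was 0.84 without the Eomes-positive cell, which had the highest Nrarp of the 3. With the second Nrarp probe set the difference was -0.04. On it, 0 of 3 E12 APs and 2 of 23 E11 AP-like cells were over 20 copies. In E11 neuron-like minus AP-like cells, where the background was 5.39%, no member was past the rule and the median over the 7 was -0.09. The E12, neurosphere and NICD/p18 comparisons with E11 share the same 23 AP-like cells.

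The floor decides how many genes are past the rule. Without it, 2 and 3 of the 7 were past it between stages over all cells and over AP-like cells, where 29.1% and 36.1% of all probe sets were. The counts were 6 and 5 for IP-like cells at E11 and E16 (54.4% and 40.5%) and 4 for E11 neuron-like cells (63.1%). They were 3 for E12 APs (47.6%), 3 for neurosphere APs (51.4%), and 5 and 7 for NICD/p18 cells against E11 and E16 AP-like cells (57.1% and 54.6%).

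**Figure D5:**
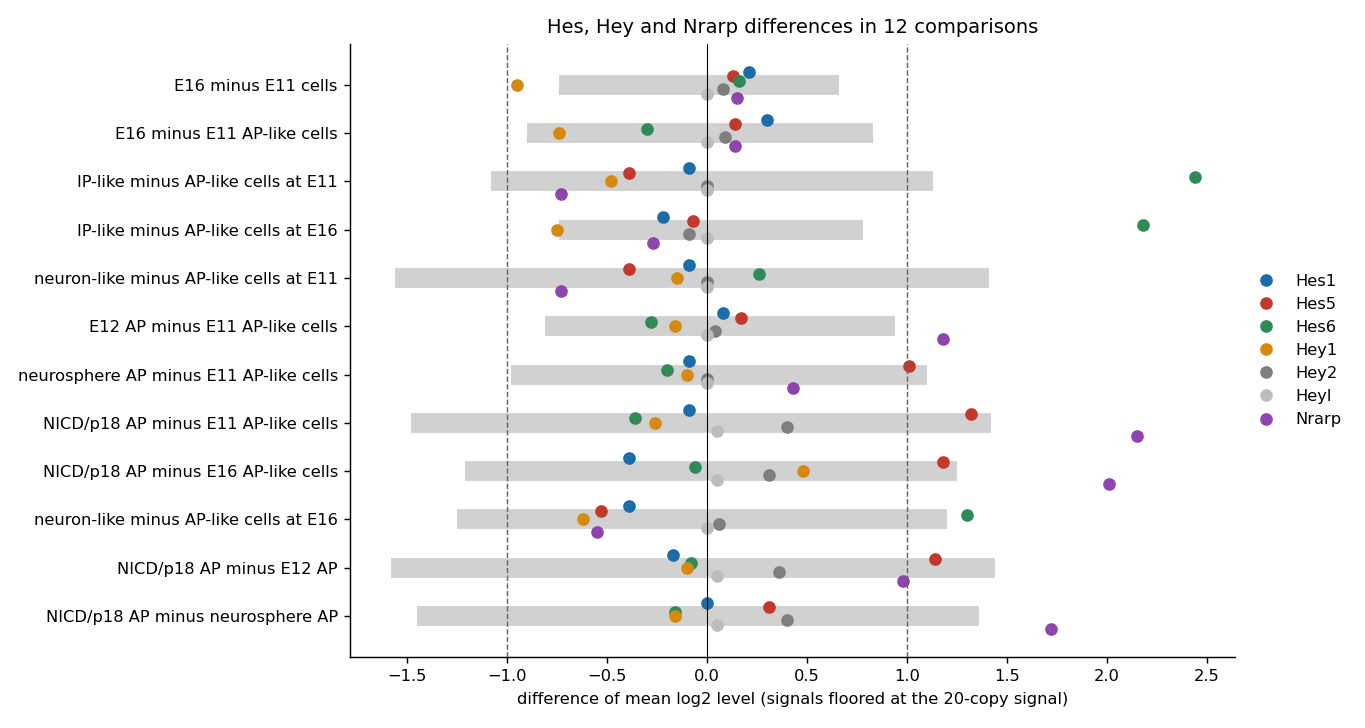
Mean log2 difference of each of the 7 genes (points, signals floored at 842) in 12 comparisons, with grey bars from the 1st to the 99th percentile of all 20721 detected probe sets and dashed lines at differences of 1 in size. Hes6 lies above the grey bar for IP-like minus AP-like cells at both stages and for E16 neuron-like cells, Nrarp does for E12 APs and for NICD/p18 cells against all groups but E12 APs, and Hey1 lies below it for E16 minus E11 cells (-0.95) and for E16 IP-like cells (-0.75).

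Other genes of the pathway were followed with a list of 55 genes of receptors, ligands, fringe enzymes, endocytosis, proteases, the RBPJ complex, Groucho corepressors, repressed targets, Id factors and related repressors, of which 40 were detected. At E11, 4 of the 40 were higher past the rule in IP-like than in AP-like cells and 1 was lower, with 2.64% of all probe sets past it in either direction. The Notch ligand Dll1 was 2.77 higher, Dll3, a ligand-like protein that acts within its own cell, 1.98, the fringe glycosyltransferase Mfng 2.20 and the proneural gene Neurog1 1.24, while the receptor Notch3 was lower (-1.15, with 0 of 3 cells over 20 copies against 18 of 23). At E16, Mfng (1.53) and Notch1 (1.20) were higher in IP-like cells and none was lower (background 0.724%). In E11 neuron-like cells Dll1 (1.74), the Notch ligand Dner (1.81) and Mfng (1.29) were higher and Notch3 lower (-1.15), against a background of 5.39%. The median over the 40 genes was 0.00 in each of these comparisons.

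In the NICD/p18 cells the receptor Notch2 (1.86) and Dner (1.69) were higher than in E11 AP-like cells, and the Groucho corepressor Tle4 was lower (-1.49, with 0 of 4 cells over 20 copies against 19 of 23, background 4.79%). Against E16 AP-like cells, Notch3 (1.12) and Dner (1.39) were higher and Rbpj, which encodes the DNA-binding partner of NICD, was lower (-1.04, 0 of 4 against 13 of 17, background 3.48%). In neurosphere APs Dner (1.87) was higher (background 2.36%). None of the 40 genes was past the rule between stages or in E12 APs. In E16 minus E11 AP-like cells, Notch2 (0.94), Dner (0.30) and Tle4 (-0.98) were short of it. Each differed in the same direction as in NICD/p18 minus E11 AP-like cells. Notch2 and Tle4 were not past the rule between NICD/p18 and E16 AP-like cells. The medians over the 40 were 0.00 in both NICD/p18 comparisons and for E12, -0.04 for neurospheres and 0.02 in both comparisons of stages.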

How the data were processed

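Single cells of CD1 mouse cortex (68 cells, 1 array each) were analysed. The authors hybridized amplified cDNA to Affymetrix mouse arrays and deposited linear MAS5 signal intensities for 45101 probe sets, per the submitters' processing notes. After trimming 2% at each end, means were 500 on 10 arrays and 47.5 to 298 on the other 58. Arrays were quantile normalized together (numpy 2.4.6, pandas 2.3.3, scipy 1.17.1, matplotlib 3.10.9, Python 3.11.15). The median phe signal (20 copies per cell) of 842 set the detection limit, and 20721 probe sets, of 10789 genes, were over it in at least 1 cell. Of 45101 probe sets, 34958 have 1 gene symbol in the platform annotation.

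E11 and E16 cells were clustered by stage on 37 marker probe sets (correlation distance, complete linkage, 3 clusters) and named from markers among the 10 leading genes by fold. A gene with several probe sets was represented by that with the highest mean. Named genes were all 7 members, pathway genes past the rule, and the 3 genes most correlated with each member detected in at least 10 cells. The members, lists and rules were chosen with earlier results of these data known. No test was made, because each group counts as 1 sample, and the few arrays per group limit precision. No 2 of the 68 arrays were identical (2278 pairs, highest correlation 0.716). The group difference was checked on simulated data. Alternatives were 2 other scalings, no floor, a doubled floor, cell 31i kept, any probe set, 2 other clusterings, leaving out each cell of small groups and, chosen after the data were seen, leaving out E11 and E16 cells with markers of other types (all NICD/p18 and neurosphere cells carry such a marker and were kept). Motifs were searched in RefSeq promoters of GRCm38.p6, which the table holds for 4 of the 7 genes.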

Additional observations from a re-analysis of the deposited data

Results flagged for a closer look

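Dixon's ratio was computed on floored log2 levels in 14 combinations of a gene and a group of 4 to 10 cells, and 8 were above the 95% critical value, which chance alone passes in about 1 of 20. Where a single cell is over 20 copies the floor gives a ratio of 1.000 by construction, so these values only mark which cell it is. In the NICD/p18 cells this was Hey2 in cell M6H (signal 2573, ratio 1.000) and Heyl in cell M6C (969, ratio 1.000). In E16 IP-like cells it was Hes1 in cell 76C (1924, ratio 1.000) and Hey1 in cell 81O (1216, ratio 1.000). Among the E16 neuron-like cells, 72J was alone over 20 copies for Hey1 (1479, ratio 1.000) and Hey2 (1289, ratio 1.000). Its Nrarp signal of 2027 was the highest of the 4 (ratio 0.983), but cell 76J was also over 20 copies (855), close above the floor at which the 2 lowest cells were set, so this ratio too follows from the floor. In the same class Hes6 was lowest in cell 80K (436, ratio 0.878).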

How the results depend on the processing

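Alternatives were run for the Hes6 differences of IP-like cells, the Nrarp differences of E12 and NICD/p18 cells from AP-like cells and the Hes5 differences of neurosphere and NICD/p18 cells from AP-like cells. These kept their direction in all 92 values and stayed past the rule in 77. Both tallies include the any-probe-set setting, which repeats the main value and could not change it. The second probe set itself gave -0.04 for Nrarp in E12 APs. For Nrarp in NICD/p18 cells it gave 0.50 from E11 and 0.45 from E16 AP-like cells. For Hes5 in neurosphere APs it gave 0.69. The Hes6 differences and those of Hes5 in NICD/p18 cells stayed past the rule with it. For Hes6 in E16 neuron-like cells, for NICD/p18 cells against E12 and neurosphere APs and for the pathway genes no alternatives were run. Counts of genes past the rule were within 1.5 times the reported count in 65 of 95 alternatives. Without the floor the counts were 2 and 3 between stages (all cells, AP-like cells), 6 and 5 for IP-like cells at E11 and E16, 4 for E11 neuron-like cells, 3 for E12, 3 for neurospheres, and 5 and 7 for NICD/p18 against E11 and E16, where 29.1% to 63.1% of all probe sets passed. Scaling to lys gave 1 (Hey1) in both stage comparisons and 1 (Nrarp) in both NICD/p18 comparisons. The doubled floor of 1685 gave 0 for E12 and neurospheres (Nrarp 0.61, Hes5 0.59) and 1 (Nrarp) in both NICD/p18 comparisons. For neurospheres the count was 0 with deposited signals scaled to 1 trimmed mean (Hes5 0.99) and 0 with cell 31i kept (0.96). Classes from all probe sets gave 2 (Hes6, Hey1) for E11 IP-like cells, then a single cell. Leaving out E11 and E16 cells with markers of other types, but not the NICD/p18 and neurosphere cells, which all carry one, gave 1 (Hey1) for E16 minus E11 cells and 1 (Hes6) for E11 neuron-like cells, of which 1 was left.

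Leaving out each cell of the small group in turn gave counts of 1 to 2 for E11 IP-like cells (2, with Hey1, without cell 45O), 0 to 0 for neuron-like cells, 0 to 1 for E12 (0 without the Eomes-positive cell), 0 to 1 for neurospheres (0 without W2G or W6D), and 1 to 2 in both NICD/p18 comparisons (1 without M5K or M6H). Neither other clustering gave an IP-like class at E16, so that comparison was not run with them. The causes were not tested. No paired analysis was possible because the replicate numbers only follow the order of the samples and pair no cells. With 3 or 4 cells in several groups, shares are bounded loosely, and 20-copy detection limits what can be said of Hey2 and Heyl.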

Other observations

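E11 cell 31i, an AP-like cell left out of the comparisons for its low quality, had the highest Hes1 signal of all 68 cells, 4857. It was also over 20 copies for Hes5 (2300), Hey1 (3260) and Nrarp (1821), and Hes6 was at 1.64. It carried 1 marker of another cell type, the vessel gene Kdr.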
